A study of Mus musculus with 9 samples.

Results

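The genes described here are 46 genes of DNA replication and of the G1/S transition, the step at which a cell commits to copying its genome. They were listed by name, and a gene was kept where its mean over the 9 libraries was at least 1 FPKM (fragments scaled by transcript length and by library depth). All 46 of the 46 listed genes were kept, of 24318 genes in the deposited tables. The libraries were polyA-selected RNA-seq of cultured mouse cells in 3 groups of 3. SE-BDEV cells received brain-derived extracellular vesicles (BDEV) labelled SE for status epilepticus, CON-BDEV cells received control brain vesicles, and Vehicle cells are labelled as treated with vehicle. The labels name no allele or genotype. Dose and exposure time are not given in the labels, nor is it stated whether the libraries of a group are separate cultures, so p-values speak only of how far these libraries vary, and that variation may be technical.

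In outline, 44 of the 46 genes passed the test with neither preparation. Mcm7, a subunit of the replicative helicase, was lower with both preparations, although with CON-BDEV the call held in only 5 of 13 alternative fits. Cdc45, which binds the loaded helicase and helps switch it on, was higher with SE-BDEV, a call that held in 3 of 13 alternative fits. With CON-BDEV its value was of similar size, short of the threshold. Ccne2, Cdc6, Orc1 and Mcm4 had lower means with both preparations that missed the threshold. They were called lower with CON-BDEV only when CON-BDEV replicate 1, a library singled out after the values were seen, was left out. In that fit 6 of the 46 genes were called, against 10.1% of all genes. Without CON-BDEV replicate 3 or any 1 Vehicle library 0 of the 46 were called with CON-BDEV.

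DNA replication starts in G1, when the origin recognition complex (ORC) with CDC6 and CDT1 loads the ring-shaped MCM2-7 helicase onto DNA, a step called licensing. In S phase CDC45 and the GINS complex bind the loaded ring and switch it on. Primase and polymerase alpha then lay down primers, polymerases delta and epsilon extend them on the sliding clamp PCNA, and FEN1 and DNA ligase 1 join the short pieces of the lagging strand. Transcription of many of these genes is driven by E2F factors, which the retinoblastoma protein holds back until cyclins D and E and their kinases release them. BV2, the line named in the study's design text, is an immortalised mouse microglial line that divides continuously in culture.

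All 9 libraries are labelled N2a, a mouse neuroblastoma line, whereas the design text has BV2. All 12 microglia and macrophage markers examined had a mean of at least 1 FPKM, with a median of 153 FPKM, and 0 of 12 neuroblastoma and neuron markers did. The summed microglia and macrophage markers ran from 3137 to 3528 FPKM in SE-BDEV, 3180 to 3397 FPKM in CON-BDEV and 3082 to 3212 FPKM in Vehicle libraries. Th, Dbh, Mycn and Stmn2 were listed at 0 in every library. The smallest FPKM steps of 60 long genes put the depth of a library between about 29196000 fragments (CON-BDEV replicate 2) and 33766000 fragments (Vehicle replicate 2). These depths rest on the median of the 60 estimates for Vehicle replicate 1, which ran from 7.10e+06 (Fgf6) to 3.47e+07 fragments (Hydin). At the depths so estimated Ccne2, the least expressed of the 46, rested on about 400 fragments in its poorest library. Mcm7 rested on at least about 12684 fragments, an approximate counting error of 0.888%. The median coefficient of variation between libraries of a group was 4.56% over the 46 genes in SE-BDEV, 4.79% in CON-BDEV and 3.02% in Vehicle. Over all genes kept it was 4.92%, 5.88% and 3.77%.

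The cells transcribed the replication machinery at high levels in every group. The median over the 46 genes was 44.2 FPKM, against 16.3 FPKM over all genes kept by the same limit, and 40 of the 46 lay above that second value. FPKM is scaled by length, so levels are set side by side between genes here, but only as approximate values. The listed loci of Gins2 and Ccne2 span 12.8 and 4.38 times their gene lengths in RefSeq, and that of Tyms 0.439 times. How far this moved the levels was not tested. Pcna, the sliding clamp, was the most abundant at 367 FPKM, and Mcm7 (153 FPKM), Mcm6 (152 FPKM) and Mcm3 (129 FPKM) were the others above 100 FPKM. The 6 subunits of the helicase ring, present once each in the protein complex, ranged 2.75-fold in level, down to 55.7 FPKM for Mcm4. RPA, the trimer that coats single-stranded DNA, had 3 subunits within 1.77-fold of each other, from 35.5 FPKM for Rpa2 to 62.8 FPKM for Rpa1. Licensing factors were the most uneven role beside the clamp and its loader, at 7.25 FPKM for the loader Cdc6 and 88.4 FPKM for Cdt1, a 12.2-fold range. Cyclin E, which activates CDK2 at the G1/S transition, was carried mostly by Ccne1 at 37.2 FPKM, against 5.30 FPKM for Ccne2. No listed gene lay near the limit of 1 FPKM, since Ccne2 was the lowest.

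**Figure D1:**
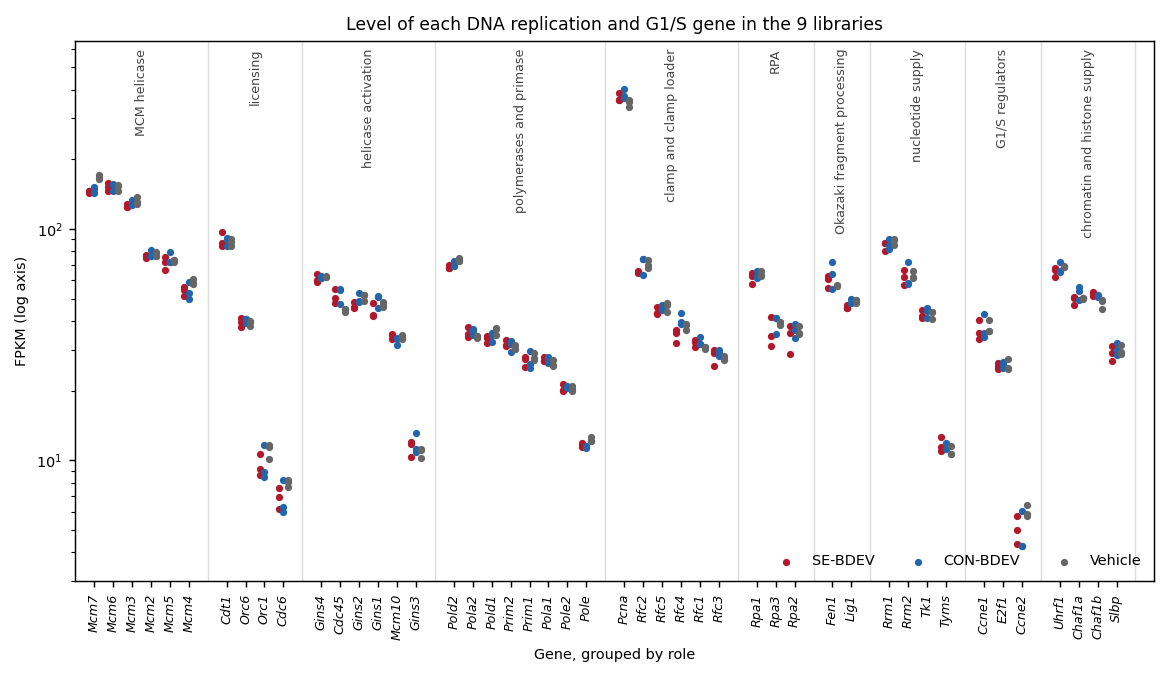
FPKM of each gene in each of the 9 libraries on a log axis, grouped by role, with SE-BDEV, CON-BDEV and Vehicle libraries side by side. Each point is 1 library. Pcna stands highest at a mean of 367 FPKM and Ccne2 lowest at 5.30 FPKM, and the groups lie close together for nearly every gene.

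SE-BDEV against Vehicle asked what vesicles labelled for status epilepticus did to these transcripts. Of the 46 genes 1 was higher (Cdc45) and 1 lower (Mcm7) at an adjusted p under 0.05 by limma, fitted over 10535 genes of which 11.9% were called (6.76% higher, 5.14% lower). In these bulk libraries fewer cells in S phase and less RNA per cell cannot be told apart. The median log2 fold change of the 46 was -0.04, against -0.00080 over all genes tested, and the median size regardless of sign was 0.066, against 0.075. Of the 46 genes 30 had a log2 fold change below 0 (65.2%), against 50.2% of all genes. Values ran from -0.22 (Ccne2) to 0.19 (Cdc45), and every 95% interval lay between -0.41 and 0.30. At an unadjusted p under 0.05 there were 13 of 46 genes (28.3%), 2 higher and 11 lower, against 27.4% of all genes (14.0% higher, 13.4% lower). In 14 of 46 genes (30.4%) the SE-BDEV and Vehicle libraries did not overlap, against 32.8% of all genes. Of these 12 were lower (26.1%) and 2 higher, against 16.3% of all genes lower and 16.5% higher.

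CON-BDEV against Vehicle put the same question to control brain vesicles. Here 1 of 46 genes was called, Mcm7, which was lower, against 5.67% of 10535 genes (3.81% higher, 1.86% lower). By the same test 0 of 46 were called higher, and 2 were higher at an unadjusted p under 0.05. The median log2 fold change of the 46 was 0.0048, against 0.0054 over all genes tested, and the median size regardless of sign was 0.045, against 0.077. At an unadjusted p under 0.05 there were 4 of 46 genes (8.70%), 2 in each direction, against 23.5% of all genes (13.9% higher, 9.63% lower). The CON-BDEV and Vehicle libraries did not overlap in 9 of 46 genes (19.6%), 7 higher and 2 lower, against 29.3% of all genes (16.6% higher, 12.7% lower). The log2 fold change was below 0 in 22 of 46 (47.8%), against 48.0% of all genes. All but Ccne2 of the 46 genes had a 95% interval within 0.5 on the log2 scale on either side of 0, so larger changes were not detected in the other 45. Both comparisons use the same 3 Vehicle libraries, so their values for a gene are not independent of each other.

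**Figure D2:**
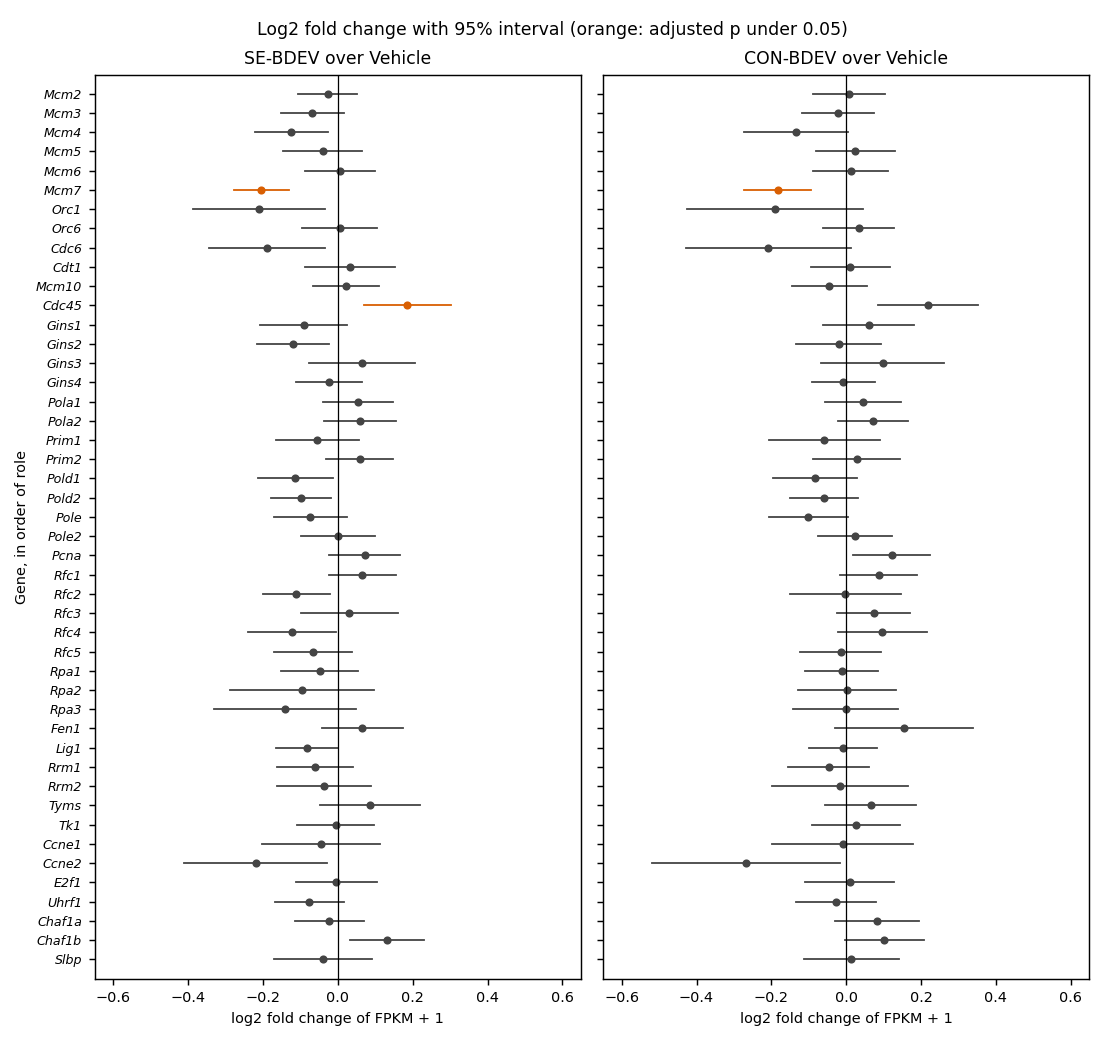
Log2 fold change of FPKM + 1 with its 95% interval for each gene, SE-BDEV over Vehicle on the left and CON-BDEV over Vehicle on the right, in order of role. Orange marks an adjusted p under 0.05. Mcm7 is orange in both panels (-0.20 and -0.18), Cdc45 in the left panel (0.19), and all other intervals are grey.

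Within the helicase, Mcm7 stood at 146, 144 and 146 FPKM in SE-BDEV libraries and 151, 148 and 142 FPKM in CON-BDEV libraries, against 168, 164 and 170 FPKM in Vehicle libraries. All 6 vesicle libraries lay below all 3 Vehicle libraries. Mcm7 fell by 0.20 on the log2 scale with SE-BDEV (SE 0.033, limma adjusted p = 0.00562), or by 13.2%, and by 0.18 with CON-BDEV (SE 0.040, limma adjusted p = 0.0339), or by 11.9%. The first call held in all 13 alternative fits (adjusted p between 0.00169 and 0.0330), the second in 5 of 13 (between 0.0122 and 0.142, the highest without Vehicle replicate 1). It was also lost without CON-BDEV replicate 3, without Vehicle replicate 2 and without Vehicle replicate 3, and further with no filter on low values, with no mean-variance trend and with a block for the library code or the replicate number (adjusted p = 0.0636, 0.0701, 0.0732 and 0.0741 by limma). Library names carry a code that begins with 1 or 2, whose meaning the labels do not give. Among codes that begin with 1 Mcm7 was 146 FPKM in the SE-BDEV library and 151 FPKM in the CON-BDEV library, against 168 and 164 FPKM in Vehicle. Among codes that begin with 2 it was 144 and 146 FPKM in SE-BDEV and 148 and 142 FPKM in CON-BDEV, against 170 FPKM in the Vehicle library. In mm9 coordinates the locus of Mcm7 is chromosome 5 from 138605817 to 138613090, and the microRNA genes Mir25, Mir93 and Mir106b within it were listed at 0 in every library. In polyA-selected libraries such values say nothing of the level of the mature microRNAs.

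The other 5 subunits of the ring did not pass the test with either preparation. Mcm4 averaged 54.1 ± 2.51 FPKM in SE-BDEV and 53.9 ± 4.74 FPKM in CON-BDEV, against 59.1 ± 1.52 FPKM in Vehicle (mean ± SD, n = 3 each), with log2 fold changes of -0.12 and -0.13 (limma adjusted p = 0.0995 and 0.226). With a block for the library code Mcm4 was called lower with SE-BDEV (-0.15, limma adjusted p = 0.0405). Mcm3 was 125 ± 1.88 FPKM in SE-BDEV and 130 ± 3.71 FPKM in CON-BDEV, against 132 ± 4.59 FPKM in Vehicle. Mcm2, Mcm5 and Mcm6 had log2 fold changes between -0.04 and 0.02 in both comparisons. Mcm6, at nearly the same level as Mcm7, had 95% intervals from -0.09 to 0.10 with SE-BDEV and from -0.09 to 0.11 with CON-BDEV. Whether the difference of Mcm7 differs from that of the other subunits was not tested.

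Cdc45, the helicase cofactor, had 55.1, 50.1 and 47.7 FPKM in SE-BDEV libraries and 47.3, 54.7 and 54.4 FPKM in CON-BDEV libraries, against 45.0, 43.7 and 45.0 FPKM in Vehicle libraries. Every vesicle library was above every Vehicle library, with SE-BDEV replicate 3 and CON-BDEV replicate 1 nearest to them. Cdc45 was 13.8% higher with SE-BDEV (log2 fold change 0.19, SE 0.052, limma adjusted p = 0.0482). The call held in 3 of 13 alternative fits, with adjusted p between 0.0172 and 0.150, and was lost in 5 of the 6 fits with 1 library left out, all but that without SE-BDEV replicate 3. It was lost as well with a block for the replicate number (limma adjusted p = 0.0504), under quantile normalization, with no filter, with no trend and in the fit of all 9 libraries. With CON-BDEV its value was 0.22 (SE 0.059), at an adjusted p of 0.0650. Its locus is chromosome 16 from 18780540 to 18812065 in mm9.

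GINS, the other cofactor of the active helicase, showed no call in its 4 subunits. Gins2 averaged 46.7 ± 1.57 FPKM in SE-BDEV and 50.1 ± 2.61 FPKM in CON-BDEV, against 50.8 ± 1.86 FPKM in Vehicle, with log2 fold changes of -0.12 and -0.02 (limma adjusted p = 0.104 and 0.847). Gins1 had values of -0.09 and 0.06, Gins3 of 0.06 and 0.10, and Gins4 of -0.02 and -0.01. Mcm10, a scaffold for helicase activation, averaged 34.5 ± 1.01 FPKM in SE-BDEV and 32.9 ± 1.16 FPKM in CON-BDEV, against 33.9 ± 0.658 FPKM in Vehicle, and the groups overlapped.

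Among licensing factors, Cdc6, which recruits the helicase to ORC, had 6.19, 6.95 and 7.59 FPKM in SE-BDEV libraries and 8.22, 5.99 and 6.32 FPKM in CON-BDEV libraries, against 7.69, 8.04 and 8.26 FPKM in Vehicle libraries. CON-BDEV replicate 1 lay among the Vehicle libraries while the other two of its group were lower. Its log2 fold changes were -0.19 with SE-BDEV and -0.21 with CON-BDEV (limma adjusted p = 0.111 and 0.237). Orc1, the largest subunit of ORC, had 8.61, 9.17 and 10.7 FPKM in SE-BDEV libraries and 11.6, 8.49 and 8.92 FPKM in CON-BDEV libraries, against 11.7, 10.2 and 11.4 FPKM in Vehicle libraries. Here too SE-BDEV replicate 3 and CON-BDEV replicate 1 were the high libraries, and both groups overlapped Vehicle. Orc6 and Cdt1 had log2 fold changes between 0.01 and 0.03 in both comparisons.

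Polymerase and primase subunits had log2 fold changes from -0.11 (Pold1) to 0.06 with SE-BDEV and from -0.10 (Pole) to 0.07 (Pola2) with CON-BDEV, and 0 of 8 called by limma in either (2 of 8 and 0 of 8 at an unadjusted p under 0.05). Pole, the catalytic subunit of the leading-strand polymerase, was 11.9, 11.6 and 11.4 FPKM in SE-BDEV libraries and 11.4, 11.5 and 11.3 FPKM in CON-BDEV libraries, against 12.1, 12.2 and 12.6 FPKM in Vehicle libraries. The vesicle libraries all lay below the Vehicle libraries, with log2 fold changes of -0.07 and -0.10 and adjusted p of 0.311 and 0.228 by limma. Pold1 and Pold2, the catalytic and second subunits of polymerase delta, had log2 fold changes of -0.11 and -0.10 with SE-BDEV (limma adjusted p = 0.134 and 0.109).

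Of the clamp and its loader, Pcna averaged 369 ± 15.1 FPKM in SE-BDEV and 382 ± 17.3 FPKM in CON-BDEV, against 351 ± 12.6 FPKM in Vehicle, with log2 fold changes of 0.07 and 0.12 (limma adjusted p = 0.305 and 0.154). The pseudogenes Pcna-ps1 and Pcna-ps2, and Tyms-ps for Tyms, are named in RefSeq, so reads of Pcna and Tyms may be shared with copies. The loader subunits Rfc1 to Rfc5, which open the clamp, had 0 of 5 calls by limma with either preparation (2 of 5 at an unadjusted p under 0.05 with SE-BDEV, Rfc2 and Rfc4, and 0 of 5 with CON-BDEV). RPA subunits had log2 fold changes from -0.14 to -0.05 with SE-BDEV and from -0.01 to 0.00 with CON-BDEV, with wide spread in SE-BDEV, where Rpa3 was 31.1, 34.5 and 41.4 FPKM. Fen1, the flap nuclease, was 55.4, 60.5 and 62.9 FPKM in SE-BDEV libraries and 72.1, 55.1 and 63.9 FPKM in CON-BDEV libraries, against 56.4, 56.8 and 57.1 FPKM in Vehicle libraries. CON-BDEV libraries of this gene spread more widely than the distance between the group means, 63.7 ± 8.48 FPKM in CON-BDEV and 56.8 ± 0.326 FPKM in Vehicle. Lig1, the ligase, had log2 fold changes of -0.08 with SE-BDEV and -0.01 with CON-BDEV.

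Genes that supply deoxynucleotides did not pass the test. Rrm1 and Rrm2, the large and small subunits of ribonucleotide reductase, had log2 fold changes of -0.06 and -0.04 with SE-BDEV and -0.05 and -0.02 with CON-BDEV. Rrm2 spread widely in CON-BDEV, at 72.3, 58.2 and 57.8 FPKM, against 61.6, 62.0 and 66.0 FPKM in Vehicle libraries. Tyms and Tk1, which make thymidylate, had log2 fold changes from -0.01 to 0.09 in the 2 comparisons.

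The cyclin E genes and E2f1 stand at the entry to S phase. Ccne2 had 4.35, 4.99 and 5.77 FPKM in SE-BDEV libraries and 6.06, 4.28 and 4.26 FPKM in CON-BDEV libraries, against 5.76, 5.85 and 6.40 FPKM in Vehicle libraries. SE-BDEV replicate 3 and CON-BDEV replicate 1 lay among the Vehicle libraries and the other 4 vesicle libraries below them. Its log2 fold changes of -0.22 with SE-BDEV and -0.27 with CON-BDEV were the lowest of the 46 genes in each comparison but missed the threshold (limma adjusted p = 0.131 and 0.184). With a block for the library code Ccne2 was called lower with SE-BDEV (-0.28, limma adjusted p = 0.0442). The locus listed for Ccne2 is shared with Ints8. Ccne1 averaged 36.5 ± 3.63 FPKM in SE-BDEV and 37.5 ± 4.78 FPKM in CON-BDEV, against 37.6 ± 2.33 FPKM in Vehicle. E2f1, an activator of S-phase genes, averaged 25.6 ± 0.689 FPKM in SE-BDEV and 25.9 ± 0.884 FPKM in CON-BDEV, against 25.7 ± 1.43 FPKM in Vehicle, with 95% intervals from -0.11 to 0.10 and from -0.11 to 0.13 on the log2 scale.

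Chromatin genes of the fork were also uncalled. Chaf1b, a subunit of the histone chaperone CAF-1, was 52.5, 51.4 and 53.2 FPKM in SE-BDEV libraries and 51.5, 51.6 and 50.7 FPKM in CON-BDEV libraries, against 48.8, 45.0 and 49.4 FPKM in Vehicle libraries. All vesicle libraries were above the Vehicle libraries, with log2 fold changes of 0.13 and 0.10 (limma adjusted p = 0.0874 and 0.223). Its partner Chaf1a had values of -0.02 and 0.08. Uhrf1, which guides maintenance DNA methylation, had values of -0.08 and -0.03, and Slbp, which binds replication-dependent histone mRNA, of -0.04 and 0.01.

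**Figure D3:**
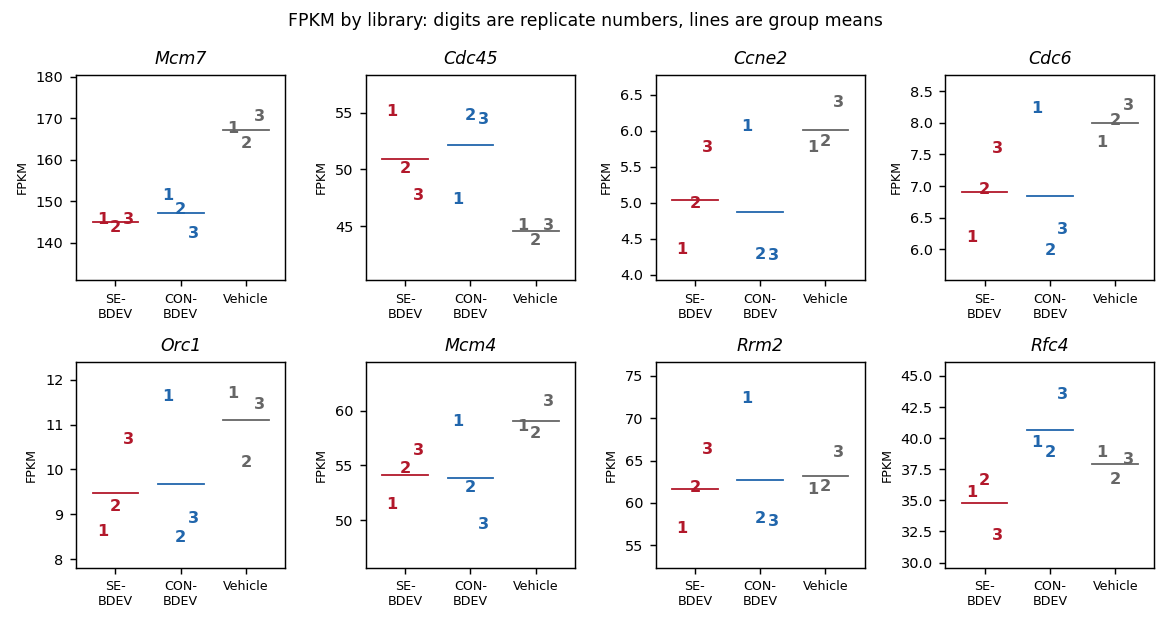
FPKM of 8 genes in each library, with the replicate number as the plotting symbol and a line at each group mean. The vertical axes do not start at 0. Mcm7 is lower and Cdc45 higher in every vesicle library than in Vehicle, while for Ccne2, Cdc6 and Orc1 SE-BDEV replicate 3 and CON-BDEV replicate 1 lie at or near the Vehicle levels.

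In all 3 groups some library was the highest or the lowest for a larger share of the 46 genes than of all genes tested. CON-BDEV replicate 1 was the highest of its group in 23 of the 46 genes, against 34.5% of all genes tested. SE-BDEV replicate 1 was the lowest of its group in 24 (52.2%), against 32.2% of all genes. SE-BDEV replicate 2 was the lowest in 5 (10.9%), against 31.6% of all genes, and SE-BDEV replicate 3 was the highest in 18 and the lowest in 17. Vehicle replicate 3 was the highest of its group in 26 (56.5%), against 37.6% of all genes, and Vehicle replicate 2 the lowest in 25 (54.3%), against 37.0%. The unevenness was thus present in Vehicle too. With the pattern of Ccne2 taken after its values were seen (CON-BDEV replicate 1 highest, SE-BDEV replicate 3 highest and SE-BDEV replicate 1 lowest of their groups), 12 of 46 genes (26.1%) shared it, against 9.77% of all genes. They were Mcm4, Orc1, Cdc6, Gins3, Rpa1, Rpa2, Fen1, Rrm2, Ccne1, Ccne2, E2f1 and Slbp. Cdc45, Gins4 and Lig1 showed the reverse, which 12.3% of all genes did. SE-BDEV replicate 1 and CON-BDEV replicate 1, whose library codes both begin with 1, lay on opposite sides, and the estimated depths of CON-BDEV replicate 1 and SE-BDEV replicate 3 were 31197000 and 32801000 fragments, inside the range of the others. Over all genes kept, deviations from the group mean correlated at 0.39 between CON-BDEV replicate 1 and SE-BDEV replicate 3. That was the highest of the pairs from different groups (the next was 0.34), so their likeness was not confined to the 46 genes. No label separates these libraries otherwise, and what sets them apart was not tested.

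**Figure D4:**
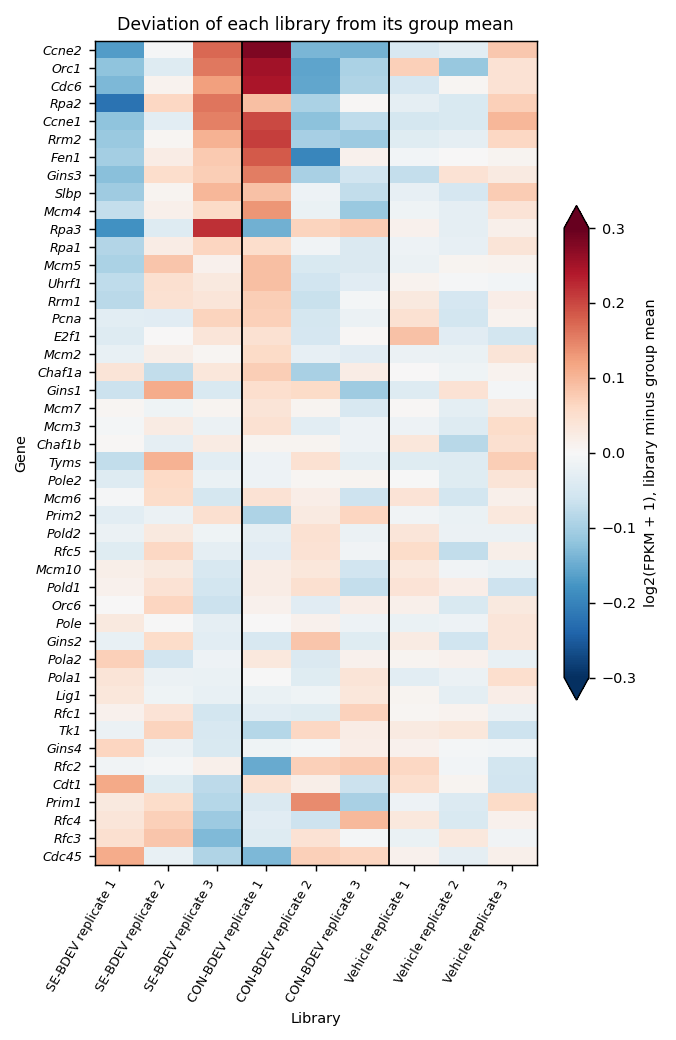
Deviation of each library from the mean of its group on the log2(FPKM + 1) scale, for each of the 46 genes, with red above and blue below the group mean. Genes are sorted by CON-BDEV replicate 1 plus SE-BDEV replicate 3 minus SE-BDEV replicate 1, so the order itself is no result. Ccne2, Orc1 and Cdc6 are at the top and Cdc45 at the bottom, and the Vehicle libraries show paler colours.

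The number of calls changed with the library left out, over all genes as well as among the 46. With CON-BDEV it ran from 0 to 6 of the 46, and from 84 to 1067 of all genes. With SE-BDEV it ran from 1 to 6 of the 46, and from 501 to 1311 of all genes. Without CON-BDEV replicate 1, 6 of the 46 genes were called with CON-BDEV, against 10.1% of 10540 genes. Cdc45 was higher (log2 fold change 0.29, limma adjusted p = 0.00615), and Ccne2 (-0.41, adjusted p = 0.0102), Cdc6 (-0.33, 0.0137), Orc1 (-0.32, 0.0248), Mcm7 (-0.20, 0.0182) and Mcm4 (-0.20, 0.0325) were lower. Without SE-BDEV replicate 3, 6 of 46 were called with SE-BDEV, against 12.4% of 10548 genes. Here Cdc45 was higher (0.23, limma adjusted p = 0.0172), and Ccne2 (-0.31, 0.0285), Orc1 (-0.29, 0.0250), Cdc6 (-0.25, 0.0353), Rpa3 (-0.25, 0.0148) and Mcm7 (-0.21, 0.00927) were lower. Without CON-BDEV replicate 2 the calls with CON-BDEV were Mcm7, lower, and Fen1, higher, and without CON-BDEV replicate 3 or any 1 Vehicle library there were 0. CON-BDEV replicate 1 and SE-BDEV replicate 3 were singled out after the values were seen, and nothing in the labels marks either as faulty.

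SE-BDEV against CON-BDEV asked whether the source of the vesicles mattered. By limma over all 9 libraries 0 of 46 genes were called, as were 0.00% of 10532 genes. At an unadjusted p under 0.05 there were 2 of 46 (4.35%), Rfc4 and Gins1, both lower, against 4.83% of all genes (1.24% higher, 3.59% lower). The libraries of the groups did not overlap in 2 of 46 (4.35%), Rfc4 and Lig1, both lower in SE-BDEV, against 7.94% of all genes (2.74% higher, 5.19% lower). The log2 fold change was below 0 in 35 of 46 genes (76.1%), against 53.0% of all genes, with a median of -0.03 and a range from -0.22 to 0.07. All 46 intervals lay within 0.5 on either side of 0 on the log2 scale. Rfc4, a subunit of the clamp loader, had 35.7, 36.6 and 32.2 FPKM in SE-BDEV libraries and 39.7, 38.9 and 43.5 FPKM in CON-BDEV libraries, and 38.8, 36.7 and 38.3 FPKM in Vehicle libraries. The SE-BDEV libraries lay below Vehicle and the CON-BDEV libraries above it. The log2 fold change of SE-BDEV over CON-BDEV was -0.22 (95% interval -0.35 to -0.09), at an unadjusted p of 0.00297 and an adjusted p of 0.991 by limma. The listed locus of Rfc4 also holds Eif4a2, a translation factor gene that averaged 71.7 ± 3.95 FPKM in SE-BDEV, 74.4 ± 4.44 FPKM in CON-BDEV and 78.3 ± 2.10 FPKM in Vehicle. For Mcm7 the interval of SE-BDEV over CON-BDEV was -0.10 to 0.06, and for Cdc45 it was -0.17 to 0.11.

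The promoters of these genes are shown to describe their E2F binding words. Many genes of replication and G1/S are driven by E2F, so a choice by function favours such words. Their share is therefore a description and no test. RefSeq promoters of build GRCm38.p6, from 250 bases before to 50 bases after the start of transcription, were found for 38 of the 46 genes. Any of the 3 words TTTGGCGC, TTTCGCGC and TTTCCCGC, sought on both strands, stood in the promoters of 14 of these 38 genes (36.8%), and in 31.8% of their 44 promoters. They stood in 1.84% of all 32851 promoters and in 3.67% of the 10398 promoters of genes that averaged 1 FPKM or more. The words can overlap, as in Mcm6. The genes with a word include Mcm3, Mcm5, Mcm6 and Mcm7 of the helicase and Orc1, Cdc6 and Cdt1 of licensing. The word CCAAT, sought likewise, stood in 63.2% of the 38 genes and in 59.1% of their 44 promoters. It stood in 37.4% of all promoters and in 37.8% of those of genes that averaged 1 FPKM or more. A match is a description of the letters and not evidence of binding.

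The 250 bases before the start follow for Mcm7, Cdc45, Orc1 and Cdc6, 5′ to 3′ on the strand of the gene. The E2F words and CCAAT words (or their reverse complements) are in capitals. Mcm7 was called with both preparations and Cdc45 with SE-BDEV. Orc1 and Cdc6 were called with neither in the main fits and were chosen after their values were seen. The words of these genes are therefore no test. Mcm7 is at chr5:138171884-138172133 (minus strand), Cdc45 at chr16:18811973-18812222 (minus strand), Orc1 at chr4:108579204-108579453 (plus strand) and Cdc6 at chr11:98907901-98908150 (plus strand). Of the 2 promoters that RefSeq gives for Mcm7 the upstream copy is shown.
Mcm7: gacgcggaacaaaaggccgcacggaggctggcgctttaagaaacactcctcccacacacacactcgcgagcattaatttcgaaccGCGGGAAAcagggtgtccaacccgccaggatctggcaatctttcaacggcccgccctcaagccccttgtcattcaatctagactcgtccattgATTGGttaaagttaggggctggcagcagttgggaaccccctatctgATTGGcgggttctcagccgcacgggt
Cdc45: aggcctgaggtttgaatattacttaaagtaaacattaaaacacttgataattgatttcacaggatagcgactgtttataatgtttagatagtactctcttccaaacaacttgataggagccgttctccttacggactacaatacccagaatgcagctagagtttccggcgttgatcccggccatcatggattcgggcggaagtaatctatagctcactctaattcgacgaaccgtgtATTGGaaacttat
Orc1: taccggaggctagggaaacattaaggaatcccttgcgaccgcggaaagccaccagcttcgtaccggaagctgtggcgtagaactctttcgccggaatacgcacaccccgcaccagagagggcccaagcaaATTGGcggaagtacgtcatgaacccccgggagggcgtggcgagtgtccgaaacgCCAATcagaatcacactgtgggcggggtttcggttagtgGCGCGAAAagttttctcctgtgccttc
Cdc6: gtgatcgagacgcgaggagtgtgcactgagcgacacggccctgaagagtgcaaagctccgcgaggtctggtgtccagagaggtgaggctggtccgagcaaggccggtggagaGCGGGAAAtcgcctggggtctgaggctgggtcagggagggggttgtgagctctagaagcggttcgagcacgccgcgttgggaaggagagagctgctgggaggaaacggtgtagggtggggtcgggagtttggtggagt
Mcm7 carries an E2F word 165 bases before its start and 2 CCAAT words, and a further E2F word lies 17 bases after the start. Orc1 carries an E2F word 27 bases and Cdc6 one 138 bases before the start. Cdc45 has none of the 3 words in this window.

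Other genes of the pathway came from 7 lists, in which 103 of 106 genes were tested. With SE-BDEV 4 were higher and 10 lower (13.6% in all, against 11.9% of all genes, 6.76% higher and 5.14% lower). With CON-BDEV 0 were higher and 1 lower (0.971%, against 5.67% of all genes). At an unadjusted p under 0.05 by limma 10 were higher and 10 lower with CON-BDEV (19.4%, against 23.5% of all genes). Of 15 E2F and RB family genes 3 were higher with SE-BDEV (20.0%, against 6.76% of all genes) and 0 lower. The median log2 fold change of these 15 was 0.06. Those higher were E2f2, an activator (0.30, limma adjusted p = 0.00567), E2f8, a repressor (0.20, 0.0186), and E2f6, a repressor (0.20, 0.0316). With CON-BDEV their values were of similar size but uncalled, at 0.27, 0.23 and 0.20 (limma adjusted p = 0.0663, 0.0700 and 0.0747). Of 14 licensing and firing factors Cdc7, the kinase that fires licensed origins, was higher with SE-BDEV (0.24, limma adjusted p = 0.0207). This was 7.14% of the list, against 6.76% of all genes called higher. Cdc7 averaged 23.5 FPKM in SE-BDEV and 23.5 FPKM in CON-BDEV, against 19.7 FPKM in Vehicle.

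Those lower with SE-BDEV were mostly outside the fork. Of 20 G2/M genes, which act after replication, 5 were lower and 0 higher, with a median of -0.09. They included Cdc20, an activator of the anaphase-promoting complex (-0.26, limma adjusted p = 0.00576), Cenpf, a kinetochore protein (-0.20, 0.0147), and Kif20a, a mitotic kinesin (-0.19, 0.0117). With CON-BDEV Cenpf was the 1 gene called of these 20, at -0.23 (limma adjusted p = 0.0248). That was 5% of the list, against 1.86% of all genes called lower. Of 14 cyclins, kinases and inhibitors Cdkn1c, a CDK inhibitor, was lower with SE-BDEV (-0.44, limma adjusted p = 0.00457), at 2.67 FPKM against 3.99 FPKM in Vehicle. This was 7.14% of the list, against 5.14% of all genes called lower. With CON-BDEV 0 of these 14 were called, and the lowest log2 fold change of the list was -0.39. Of 10 nucleotide supply genes 2 were lower with SE-BDEV (20.0%, against 5.14% of all genes). They were the p53-inducible reductase subunit Rrm2b (-0.30) and the mitochondrial thymidine kinase Tk2 (-0.20). With CON-BDEV these 2 genes were uncalled at -0.22 and -0.15 (limma adjusted p = 0.175 and 0.299). Cdca7 (-0.18), a partner of the remodeler HELLS, was lower with SE-BDEV of 10 chromatin genes (10%, against 5.14% of all genes). No gene of these lists was called between SE-BDEV and CON-BDEV by limma, and 4 had an unadjusted p under 0.05 (3.88%, against 4.83% of all genes).

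In the authors' deposited table, Cuffdiff called 0 of the 46 genes at q under 0.05 in either comparison. The lowest q in the authors' deposited table was 0.166 for Mcm7 with SE-BDEV and 0.189 for Cdc45 with CON-BDEV. In the authors' deposited table the log2 fold changes of Mcm7 were -0.21 with SE-BDEV and -0.18 with CON-BDEV, at p of 0.0164 and 0.0378. Those of Cdc45 in the authors' deposited table were 0.19 with SE-BDEV and 0.23 with CON-BDEV, at p of 0.0318 and 0.0155.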

How the data were processed

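The data were 9 polyA-selected mouse RNA-seq libraries, grouped and numbered by their titles. Per the submitters' processing notes, reads were processed with TopHat2 and Cuffdiff on build mm9, with versions and annotation not given in the sources used here. The authors deposited FPKM for 24318 genes in each library, in 1 table per vesicle preparation, each with the same 3 Vehicle libraries. The authors' Cuffdiff tables give, per the file headers, mean FPKM, a log2 fold change, a test score, a p-value and a q-value per gene.

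The Vehicle libraries differed between the 2 tables by constant factors of 1.00042, 1.00012 and 1.00078, and SE-BDEV values were divided by their geometric mean to join the tables. Starts in the deposited tables were read as counted from 0, and 1 was added. FPKM are not counts, so log2(FPKM + 1) was analysed with limma 3.58.1 in R 4.3.3 (2-sided moderated tests, eBayes with trend). A gene was tested where its libraries in the fit averaged 1 FPKM or more and Cuffdiff had not marked it as failed. The adjustment was that of Benjamini and Hochberg over all genes tested, with a threshold of 0.05. Comparisons with Vehicle stayed within 1 table, and SE-BDEV with CON-BDEV in all 9 joined libraries. An exact permutation test of 3 libraries against 3 cannot give a p below 0.1. Fits were also run on simulated data with independent noise for each gene. Those data held no deviations shared by the genes of a library, so they cannot vouch for calls that depend on single libraries. The alternatives were another pseudocount (0.1 FPKM), no filter, quantile normalization, no trend, 2 blocks, all 9 libraries in 1 fit, and each library left out.

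The 46 genes and the other lists were chosen with earlier results of these data known. Named genes were those past the threshold, in every comparison the 3 of lowest p among the higher and among the lower genes, the MCM subunits, Pcna, Rrm2, the cyclin E genes, E2f1 and the genes with the highest and lowest level. Other members singled out were chosen after their values were seen. Loci of 8 of the 46 genes (Mcm7, Gins2, Pold1, Pold2, Rfc4, Lig1, Tk1 and Ccne2) overlap another listed gene, and strand use in counting is not given in the sources used here. Depth was estimated from the steps between low FPKM values and GENCODE exon lengths, and counting errors cover counting only. Promoters came from RefSeq. The largest share of nonzero values identical between 2 libraries was 0.00726%, so no library was counted as a duplicate. Values of some genes in the lists are not reported here.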

Additional observations from a re-analysis of the deposited data

Results flagged for a closer look

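Rfc4 drew attention because its 2 effects point opposite ways: all SE-BDEV libraries lay below all Vehicle libraries (32.2 to 36.6 FPKM, against 36.7 to 38.8 FPKM) and all CON-BDEV libraries above them (38.9 to 43.5 FPKM). The nearest libraries of SE-BDEV and Vehicle differ by less than 1 FPKM, as do those of CON-BDEV and Vehicle. The difference itself was tested. The log2 fold change of SE-BDEV over CON-BDEV was -0.22, with a limma adjusted p of 0.991, and adjusted p over the 15 alternatives between 0.335 and 1, so it did not pass the threshold in any of them. No other gene of the 46 showed opposite effects of this kind.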

How the results depend on the processing

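With CON-BDEV, 1 of the 46 genes and 597 of all genes were called. The members' count was 0 with no filter, with no mean-variance trend, with the replicate block and with the library-code block, and 0 to 6 with 1 library left out. The count over all genes was 112 with no filter, 364 with the replicate block, 275 with the library-code block, and 84 to 1067 with 1 library left out. With SE-BDEV, 2 of 46 and 1253 of all genes were called. The members' count was 1 with no filter, quantile normalization, no trend, the replicate block or all 9 libraries in 1 fit, 4 with the library-code block (Mcm7, Cdc45, Mcm4 and Ccne2), and 1 to 6 with 1 library left out. The count over all genes was 726 with no filter, 830 with all 9 libraries, and 501 to 1311 with 1 library left out. Between SE-BDEV and CON-BDEV the count over all genes was 0, but 1 with no trend, and 0 to 1 with 1 library left out. The members' median log2 fold change was -0.037 under quantile normalization with CON-BDEV, -0.071 under the library-code block with SE-BDEV, and -0.055 to -0.010 with 1 library left out with SE-BDEV. The cause was not tested.

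Among the named genes, signs turned only in comparisons where the gene was uncalled. With CON-BDEV, quantile normalization gave Mcm2 -0.044, Mcm5 -0.020, Mcm6 -0.057 and E2f1 -0.011, and the library-code block gave Rrm2 0.020 and Ccne1 0.016. With SE-BDEV, quantile normalization gave Mcm6 -0.038. Between SE-BDEV and CON-BDEV it gave Mcm6 0.019, Mcm7 0.017 and Rrm2 0.0049. With 1 library left out, the values with CON-BDEV were -0.022 to 0.026 for Mcm2, -0.045 to 0.0063 for Mcm3, -0.020 to 0.047 for Mcm5, -0.016 to 0.043 for Mcm6, -0.062 to 0.0035 for Gins2, -0.018 to 0.053 for E2f1, -0.12 to 0.038 for Rrm2 and -0.11 to 0.052 for Ccne1. With SE-BDEV they were -0.082 to 0.0069 for Mcm5, -0.023 to 0.031 for Mcm6, -0.088 to 0.019 for Rrm2, -0.12 to 0.015 for Ccne1, -0.031 to 0.039 for E2f1 and -0.042 to 0.014 for Chaf1a. Between SE-BDEV and CON-BDEV they were -0.046 to 0.076 for Mcm4, -0.038 to 0.019 for Mcm6, -0.10 to 0.012 for Cdc45, -0.074 to 0.085 for Rrm2, -0.11 to 0.064 for Ccne1, -0.038 to 0.19 for Ccne2 and -0.039 to 0.0087 for E2f1.

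Same-numbered libraries had a mean correlation of deviations of -0.04, over 0.1 in 3 of 9 pairs, and 3 of 9 libraries lay nearest to a library with their number, so the numbers were not taken as pairs. A fold change on the log2(FPKM + 1) scale understates the change of low genes such as Ccne2, and precision is limited by 3 libraries a group.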
